A study of Arabidopsis thaliana with 12 samples.

Results

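The genes described are the Arabidopsis heat regulators of the DREB2 and MBF1 families, a set of 7 loci among the 33557 of the deposited expression table. The members were set by locus identifier and by no rule on measured values, though with earlier results of these data known. They are DREB2A (AT5G05410), DREB2B (AT3G11020), DREB2C (AT2G40340), DREB19 (AT2G38340), MBF1A (AT2G42680), MBF1B (AT3G58680) and MBF1C (AT3G24500). All 7 were found in the table. Transcripts were measured by RNA-seq in leaves of 5-week-old Col-0 plants in 4 groups with 3 libraries each. 35S:HSFA1b HS plants carried an HSFA1b-RFP fusion driven by the constitutive 35S promoter and were exposed to 37 °C for 30 min (heat stress, HS), and 35S:HSFA1b NS plants carried the same transgene and stayed at 23 °C (non-stress, NS). WT HS and WT NS plants were Col-0 without the transgene under the same 2 treatments. The overexpressor was a single transgenic line, and the titles of the libraries, not their genotype label, which reads wild type throughout, set the groups. The RNA-seq methods of the study do not name the 35S:HSFA1b HS group, so comparisons with it came from a separate fit of all 12 columns. The methods call the libraries of the other 3 groups biological replicates; for 35S:HSFA1b HS nothing states this, and its spread may be technical.

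DREB2 proteins are AP2/ERF transcription factors that bind the dehydration-responsive element (DRE). DREB2A is known for its part in drought, salt and heat responses, its protein is removed by ubiquitin ligases in unstressed plants, and it activates HSFA3, which extends the heat response. Multiprotein bridging factors (MBF1) are transcriptional coactivators that connect DNA-bound factors with the TATA-binding protein. MBF1C is the heat-induced member and is needed for thermotolerance, whereas MBF1A and MBF1B are known as the more steadily expressed members. Heat shock factors of clade A1, to which HSFA1b belongs, act upstream of both families in the first phase of the heat response.

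Levels are given in FPKM, fragments scaled to gene length and to the size of the library, the latter by the geometric method. The columns did not have a like sum over all loci. It was 758630 to 796860 FPKM in 35S:HSFA1b HS, 632840 to 833273 in 35S:HSFA1b NS, 1222030 to 1280258 in WT HS and 873541 to 956978 in WT NS. Levels, ratios and sums compared between groups rest on this scaling. Column names in the table hold the genotype, the treatment and a digit (0, 1 or 2), and the digits could not be tied to single libraries. HSFA1B itself, whose values include the transgene, was at 329.9 to 364 FPKM in 35S:HSFA1b HS columns, 429.6 to 624 FPKM in 35S:HSFA1b NS columns, 6.17 to 7.31 FPKM in WT HS columns and 3.1 to 4.79 FPKM in WT NS columns, so the genotypes of all columns followed their names. The labels carry a library prefix. All 3 35S:HSFA1b HS libraries and 2 of the 35S:HSFA1b NS libraries have the same prefix, and the remaining 35S:HSFA1b NS library and the 6 WT libraries have another. Prefix and genotype therefore cannot be told apart under HS, and under NS they are confounded in part.

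Columns 0 and 1 of the 35S:HSFA1b NS group and all 3 columns of the 35S:HSFA1b HS group stood apart in their leaf genes. RBCS1A, a small subunit of Rubisco, was at 3525 to 4198 FPKM in 35S:HSFA1b HS columns and at 3057 and 3138 FPKM in columns 0 and 1 of 35S:HSFA1b NS, against 15512 FPKM in column 2 of that group, 15007 to 21029 FPKM in WT HS columns and 17139 to 21754 FPKM in WT NS columns. The summed level of 4 mesophyll markers spanned 10550.0 to 11901 FPKM in 35S:HSFA1b HS, 9909 to 34809 FPKM in 35S:HSFA1b NS, 35085 to 45021 FPKM in WT HS and 37278 to 46749 FPKM in WT NS. The columns with low RBCS1A were as many per group as the libraries with the prefix that no WT library has, 3 in 35S:HSFA1b HS and 2 in 35S:HSFA1b NS. Whether they are the same libraries could not be tested, since columns are not tied to libraries. In such bulk tissue fewer cells of a type, less RNA per cell and a difference that goes with the prefix cannot be told apart. The summed level of 2 guard cell markers was 33.6 to 35.3 FPKM in 35S:HSFA1b HS, 20.2 to 21.8 FPKM in 35S:HSFA1b NS, 9.31 to 16.9 FPKM in WT HS and 14.9 to 18.7 FPKM in WT NS. Of these KAT1 averaged 27.1, 10.7, 9.55 and 8.62 FPKM in the same order of groups. MYB60 was at 6.62 to 7.53 FPKM in 35S:HSFA1b HS, 9.83 to 10.4 FPKM in 35S:HSFA1b NS, 2.31 to 5.72 FPKM in WT HS and 6.95 to 9.9 FPKM in WT NS. Of 3 root markers, COBL9 and EXPA7 were under 1 FPKM in every column, while PYK10 was at 18.5 to 31.6 FPKM in 35S:HSFA1b HS, 39.6 to 41.6 FPKM in 35S:HSFA1b NS, 8.8 to 15.8 FPKM in WT HS and 13.7 to 15.7 FPKM in WT NS. The phloem marker SUC2 was at 56.9 to 98.2 FPKM over all columns, and all 3 flower and 2 seed markers were under 1 FPKM in every column. The part of these differences in the results for the 7 genes was not tested. For 35S:HSFA1b NS against WT NS or WT HS plants, it is stated below which of the 7 genes kept a call with column 2 alone. For HS changes in 35S:HSFA1b plants, and for their differences from those in WT plants, it is not stated.

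**Figure D1:**
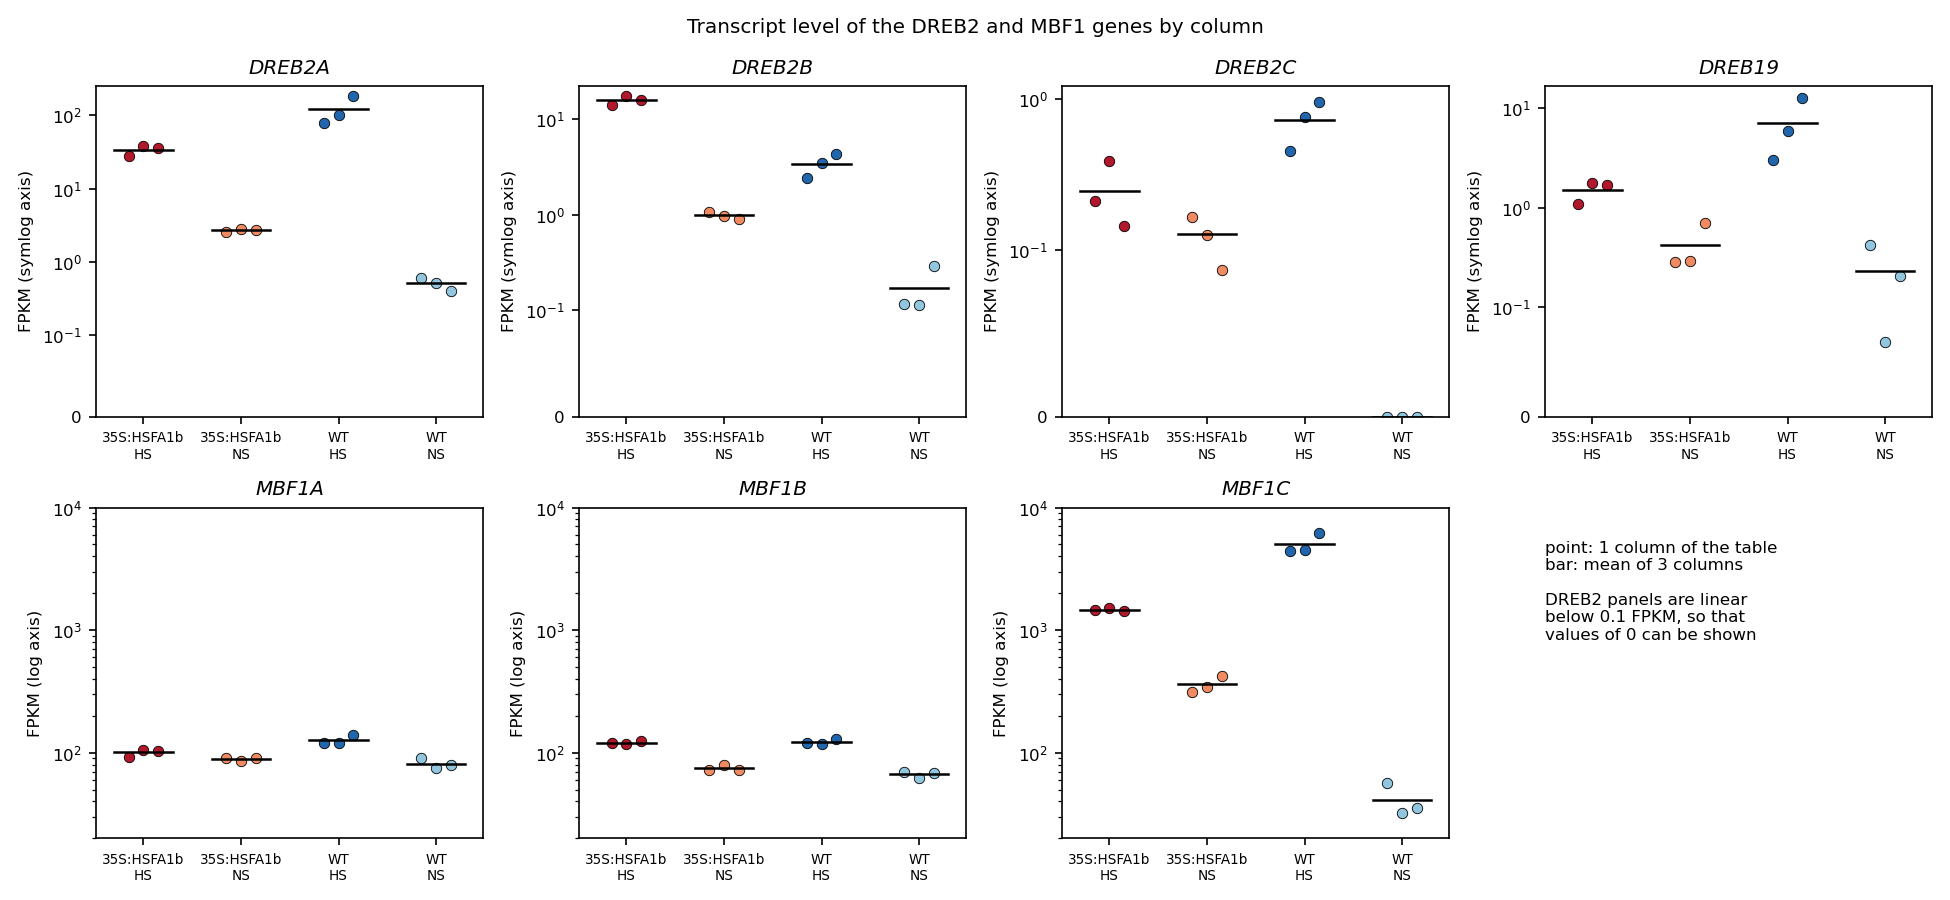
FPKM (vertical axes: log for MBF1 genes, symmetric log that is linear below 0.1 FPKM for DREB2 genes) of the 7 genes in each of the 12 columns, by group (horizontal axes). Points are columns and bars are means of 3 columns. DREB2A, DREB19 and MBF1C were highest in WT HS, DREB2B was highest in 35S:HSFA1b HS, and DREB2C was listed at 0 in all 3 WT NS columns.

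Of the 7 genes, 6 were tested and DREB2C had a mean below the filter of 1 FPKM. Calls are Benjamini-Hochberg adjusted p of at most 0.05 over all genes tested in limma on log2(FPKM + 0.01), so that changes of low genes are understated, and with 3 columns a group the smallest p that an exact two-sided permutation test of a single gene allows is 0.1. In WT HS against WT NS plants all 6 rose, in a comparison in which 44.5% of the 17710 tested genes were called, 23.7% up and 20.8% down (15.9% and 26.9% after quantile normalization). In 35S:HSFA1b NS against WT NS plants 3 of 6 rose (DREB2A, DREB2B and MBF1C) and none fell, where 9.77% of tested genes were called, 6.12% up and 3.65% down. These 1731 calls became 641 without column 1 and 1107 without column 0 of 35S:HSFA1b NS, 2873 without column 2 of WT HS, and 685 and 692 without columns 1 and 2 of WT NS. In 35S:HSFA1b NS against WT HS plants all 6 were lower, where 38.0% of tested genes were called, 17.4% higher and 20.6% lower (18.3% and 13.6% after quantile normalization). In 35S:HSFA1b HS against 35S:HSFA1b NS plants 5 of 6 rose, MBF1A being the exception, where 42.3% of 17720 tested genes were called, 22.6% up and 19.7% down. In 35S:HSFA1b HS against WT HS plants 4 of 6 were lower and 1, DREB2B, was higher, where 28.9% of tested genes were called, 12.1% higher and 16.8% lower (13.1% and 11.1% after quantile normalization). The HS change itself was smaller in 35S:HSFA1b than in WT plants for 3 of 6 (DREB2A, MBF1C and MBF1A), where 11.9% of tested genes were called, 3.94% with a larger and 7.97% with a smaller value in 35S:HSFA1b plants (6.89% and 6.2% after quantile normalization). These 2112 calls became 1309 and 1274 without columns 1 and 2 of 35S:HSFA1b HS, 1249 and 1161 without columns 1 and 2 of 35S:HSFA1b NS, 3387 without column 0 of WT HS, and 1199 and 1262 without columns 1 and 2 of WT NS. The median log2 fold change of the 6 genes was 4.65 in WT HS against WT NS plants and 1.97 in 35S:HSFA1b HS against 35S:HSFA1b NS plants, beside medians of 0.02 over all tested genes in both. With column 2 alone in the 35S:HSFA1b NS group, 1 gene (MBF1C) was called against WT NS, where 1.2% of all genes were, and 3 (DREB2A, MBF1B and MBF1C) against WT HS, where 10.9% were. The first 3 comparisons share columns with each other, as do the last 3.

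**Figure D2:**
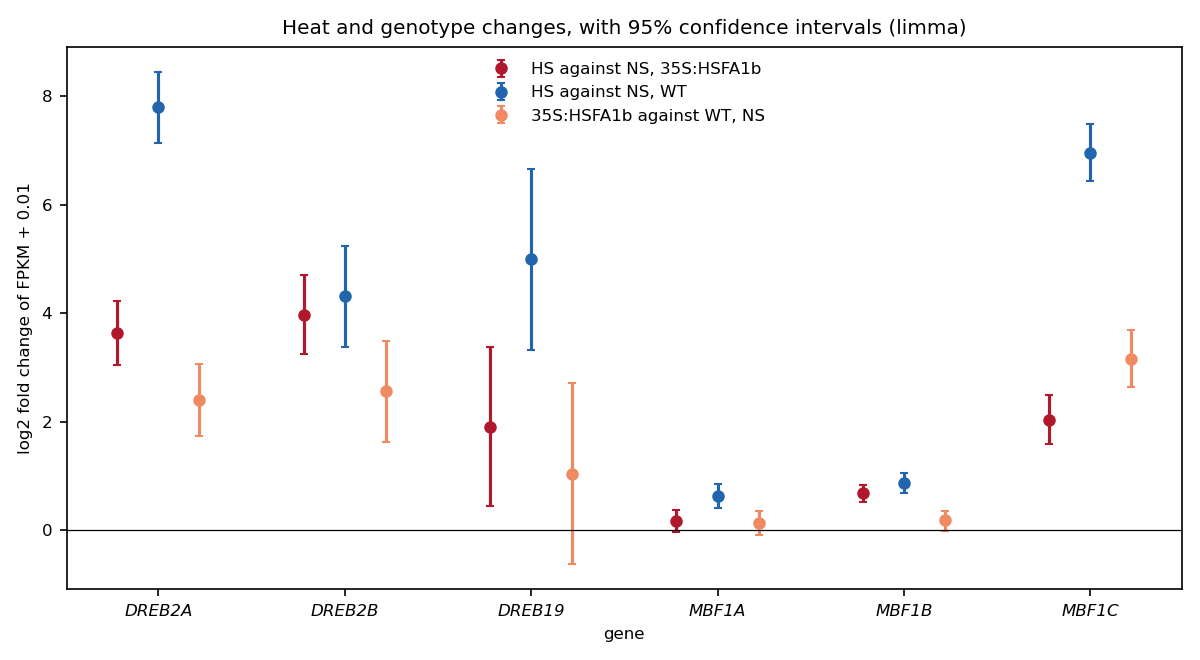
Log2 fold change of FPKM + 0.01 (vertical axis) of the 6 tested genes (horizontal axis) for HS in 35S:HSFA1b plants (red), HS in WT plants (blue) and 35S:HSFA1b against WT plants under NS (orange). Points are limma estimates and bars are 95% confidence intervals; the HS changes of DREB2A were 3.63 in 35S:HSFA1b and 7.79 in WT plants, and those of MBF1C were 2.04 and 6.95.

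DREB2A, the central drought and heat factor of its family, had the largest increase of the 6 tested genes under HS in WT plants. It reached 28.3, 38.2 and 35.4 FPKM in 35S:HSFA1b HS columns and 2.55, 2.82 and 2.75 FPKM in 35S:HSFA1b NS columns. In WT HS columns it was at 78.6, 101 and 185 FPKM, against 0.613, 0.524 and 0.399 FPKM in WT NS columns. No 2 groups overlapped, and the order from highest to lowest was WT HS, 35S:HSFA1b HS, 35S:HSFA1b NS and WT NS. The mean was 122 ± 56.3 FPKM in WT HS and 0.512 ± 0.107 FPKM in WT NS (SD, n = 3 each), a ratio of mean FPKM of 237 (log2 fold change 7.79, SE 0.29, limma adjusted p = 2.4e-07). The mean in 35S:HSFA1b HS was 34 ± 5.11 FPKM and that in 35S:HSFA1b NS 2.71 ± 0.141 FPKM (SD, n = 3 each), a ratio of 12.6 (log2 fold change 3.63, SE 0.27, limma adjusted p = 4.0e-06). The HS change was thus smaller in 35S:HSFA1b than in WT plants (log2 difference -4.15, SE 0.38, limma adjusted p = 5.1e-05). That difference has 2 measured parts. Under NS, 35S:HSFA1b plants were 5.29 times above WT plants (log2 2.40, SE 0.29, adjusted p = 0.0015). Under HS, 35S:HSFA1b plants were below WT plants (log2 -1.75, SE 0.27, adjusted p = 0.00082). With column 2 alone in the 35S:HSFA1b NS group the NS difference kept its size, 2.43 on the log2 scale, and lost its call (adjusted p = 0.098), with the lone column assumed to vary like the other groups; the 3 values of that group lay within 2.55 to 2.82 FPKM although RBCS1A differed widely between them.

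DREB2A lies at chr5:1602205-1604112 on the plus strand (RefSeq, TAIR10.1) with 2 exons, and the 250 bases before its start hold the longest heat shock element found among the 7 genes. The heat shock element is the site that heat shock factors recognise, built from units of GAA and TTC in alternating orientation. The stretches before DREB2A and DREB2B are shown because these genes differ in this element and share a hexamer near the start. Capitals mark the 3-unit heat shock element and TCTAGA in DREB2A, and the G-box (CACGTG) and TCTAGA in DREB2B.
DREB2A, chr5:1601955-1602204, plus strand: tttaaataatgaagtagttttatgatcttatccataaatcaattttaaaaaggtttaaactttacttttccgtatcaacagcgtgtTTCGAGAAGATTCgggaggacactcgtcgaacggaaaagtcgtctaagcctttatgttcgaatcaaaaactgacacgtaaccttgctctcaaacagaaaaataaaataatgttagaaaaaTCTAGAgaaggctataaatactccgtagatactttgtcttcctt
DREB2B, chr3:3455105-3455354, plus strand: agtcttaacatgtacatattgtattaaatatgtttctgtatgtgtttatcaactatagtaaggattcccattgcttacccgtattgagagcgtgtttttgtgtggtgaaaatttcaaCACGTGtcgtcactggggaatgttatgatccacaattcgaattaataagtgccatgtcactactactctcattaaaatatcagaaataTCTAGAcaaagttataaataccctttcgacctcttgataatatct
The 3-unit element of DREB2A ran from -164 to -152 relative to the gene start. It was searched as the units GAA, TTC and GAA, or TTC, GAA and TTC, each 2 bases apart, on both strands, in 250 bases before to 50 after the start, and 0.481% of 27443 RefSeq promoters of that length held a match. The 2-unit form, GAANNTTC or TTCNNGAA, which the 3-unit form contains, was held by 19.3% of promoters. TCTAGA lay at -44 to -39 in DREB2A and at -45 to -40 in DREB2B. It contains CTAGA, the letters of the element described for MBF1C, which 28.1% of promoters held and which MBF1C held at 37 to 41 after its gene start, on the other strand. TCTAGA itself, a hexamer chosen after the sequences were seen, was held by 6.74%. The G-box of DREB2B lay at -133 to -128 and was held by 7.68% of promoters. The DRE, ACCGAC or GCCGAC, was held by 8.72% of promoters and by none of the 7 windows at gene starts. Such matches describe the letters only.

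DREB2B, the closest relative of DREB2A among the 7 genes with 74.2% identity over 914 aligned coding bases, showed another order of groups. It was at 13.8, 17.1 and 15.7 FPKM in 35S:HSFA1b HS columns and at 1.07, 0.966 and 0.897 FPKM in 35S:HSFA1b NS columns. In WT HS columns it was at 2.42, 3.46 and 4.28 FPKM, against 0.116, 0.114 and 0.289 FPKM in WT NS columns. No groups overlapped, and here the heated overexpressor was the highest. The values of this gene could be read back as whole fragments, within 0.2 of a whole number in every column. They came to 204, 369 and 345 fragments in 35S:HSFA1b HS, 27, 24 and 32 in 35S:HSFA1b NS, 56, 80 and 88 in WT HS, and 3, 3 and 10 in WT NS. The level in WT NS columns thus rested on few fragments (exact Poisson 95% intervals of 0.619 to 8.77 for 3 fragments and 4.8 to 18.4 for 10, covering counting error only). The mean was 15.6 ± 1.66 FPKM in 35S:HSFA1b HS and 3.39 ± 0.931 FPKM in WT HS (SD, n = 3 each), 4.59 times higher in the overexpressor (log2 fold change 2.23, SE 0.33, limma adjusted p = 0.00063). HS raised DREB2B 15.9-fold in 35S:HSFA1b plants (log2 3.97, SE 0.33, adjusted p = 8.4e-06). It raised DREB2B 19.6-fold in WT plants (log2 4.31, SE 0.41, adjusted p = 9.2e-05). These HS changes were not found to differ (log2 difference -0.33, 95% confidence interval -1.36 to 0.70, adjusted p = 0.65), but this rests on the pseudocount: the sign turned with a pseudocount of 0.1 (log2 0.16) and after quantile normalization, and with a pseudocount of 1 the HS change was larger in 35S:HSFA1b plants (log2 1.18, adjusted p = 0.0062). Under NS the overexpressor was 5.66 times above WT (log2 2.56, SE 0.41, adjusted p = 0.0065), a call that was lost after quantile normalization (log2 1.27, adjusted p = 0.14) and with column 2 alone (log2 2.44, adjusted p = 0.2). DREB2B lies at chr3:3455355-3457342 on the plus strand, and 1086 of its 1562 exonic bases overlap TBL32 on the opposite strand. TBL32 was at 4.98 to 5.36 FPKM in 35S:HSFA1b HS, 4.97 to 6.78 FPKM in 35S:HSFA1b NS, 4.16 to 6.61 FPKM in WT HS and 4.14 to 5.89 FPKM in WT NS. It was thus at a like level in all groups, and since the sources used here do not state strand, reads of the 2 genes cannot be told apart in the overlap.

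DREB2C, a factor that activates HSFA3 under heat, was the lowest of the 7 genes. It was at 0.212, 0.387 and 0.143 FPKM in 35S:HSFA1b HS columns, at 0.166, 0.126 and 0.0877 FPKM in 35S:HSFA1b NS columns, at 0.452, 0.768 and 0.964 FPKM in WT HS columns, and listed at 0 in the 3 WT NS columns. In whole fragments these values were 3, 8 and 3 in 35S:HSFA1b HS, 4, 3 and 3 in 35S:HSFA1b NS, 10, 17 and 19 in WT HS, and 0, 0 and 0 in WT NS. Every WT HS column was above every column of the other 3 groups, and the 35S:HSFA1b HS and NS columns overlapped. The limit that 0 allows was set at 3 fragments over the WT NS group, equal to 0.0359 FPKM. The mean of WT HS was 20.3 times this limit and that of 35S:HSFA1b NS 3.52 times. These are not lower bounds on the fold changes, since only the WT NS side is bounded. The 35S:HSFA1b NS mean rests on 10 fragments in all (exact Poisson 95% interval of 4.8 to 18.4 for a count of 10, covering counting error only). DREB2C was below the filter of 1 FPKM and is given with no test. DREB2C lies at chr2:16848160-16850494 on the minus strand, with 6 annotated transcripts.

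DREB19, a DREB2 family factor known from drought and salt responses, was highest in heated WT plants and had a wide spread. It was at 1.08, 1.75 and 1.70 FPKM in 35S:HSFA1b HS columns and at 0.285, 0.289 and 0.691 FPKM in 35S:HSFA1b NS columns. In WT HS columns it was at 3.03, 5.87 and 12.7 FPKM, against 0.416, 0.0675 and 0.206 FPKM in WT NS columns. The heated groups overlapped neither each other nor the NS groups, while the 2 NS groups overlapped. HS raised the mean to 7.19 ± 4.95 FPKM in WT HS, against 0.23 ± 0.175 FPKM in WT NS (SD, n = 3 each; log2 fold change 4.99, SE 0.73, limma adjusted p = 0.00098). The mean was 4.45 FPKM in WT HS without column 2 and 0.137 FPKM in WT NS without column 0. In 35S:HSFA1b plants the HS change was 1.91 on the log2 scale (SE 0.66, adjusted p = 0.038). Leaving out any 35S:HSFA1b HS column, column 0 or 1 of 35S:HSFA1b NS, column 2 of WT NS or column 1 of WT HS ended that call, with adjusted p between 0.05 and 0.11. The heated overexpressor was below heated WT (log2 -2.04, SE 0.66, adjusted p = 0.04), and leaving out any 35S:HSFA1b HS column, column 1 of 35S:HSFA1b NS, column 1 or 2 of WT HS or column 2 of WT NS ended that call, with adjusted p between 0.051 and 0.13. The difference of the HS changes was -3.08 (SE 0.94, adjusted p = 0.057) and passed the threshold without column 0 of WT NS (adjusted p = 0.022) or column 0 of WT HS (adjusted p = 0.027). Under NS the overexpressor did not differ detectably from WT (log2 1.04, 95% confidence interval -0.63 to 2.71, adjusted p = 0.4), and the sign turned after quantile normalization. DREB19 lies at chr2:16067396-16068615 on the minus strand and overlaps 3 genes on the opposite strand, the long non-coding RNA AT2G08960 by 205 exonic bases, AT2G38330 by 42 and AT2G38350 by 11. AT2G08960 was not analysed here, AT2G38330 was at 16.8 to 27.4 FPKM over all columns and AT2G38350 at no more than 1.85 FPKM.

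The 4 DREB2 genes together summed to 51.3 ± 7.19 FPKM in 35S:HSFA1b HS, 4.24 ± 0.181 FPKM in 35S:HSFA1b NS, 133 ± 62.3 FPKM in WT HS and 0.915 ± 0.221 FPKM in WT NS (SD, n = 3 each). DREB2A made up 65.2 to 66.8% of this sum in 35S:HSFA1b HS columns and 90.9 to 93% in WT HS columns. DREB2B made up 29.7 to 31.8% of it in 35S:HSFA1b HS columns and 2.11 to 3.12% in WT HS columns. The make-up of the family after HS thus differed between genotypes by more than the spread between columns. Of the other 4 genes of the DREB2 subfamily, DREB2F was at 6.72 ± 0.0203 FPKM in 35S:HSFA1b HS, 6.7 ± 0.964 FPKM in 35S:HSFA1b NS, 5.88 ± 0.424 FPKM in WT HS and 6.62 ± 1.97 FPKM in WT NS (SD, n = 3 each), and was called in none of the 6 comparisons. In both NS groups its mean was above the sum of the 4 genes, and in both HS groups below it. DREB2D stayed under 1 FPKM in every column, DREB2G reached at most 0.0743 FPKM, and DREB2H was listed at 0 in all columns.

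MBF1C, the heat-induced coactivator, was the most abundant of the 7 genes in every group except WT NS. It was at 1455, 1519 and 1430.2 FPKM in 35S:HSFA1b HS columns and at 312, 346 and 425 FPKM in 35S:HSFA1b NS columns. In WT HS columns it was at 4412, 4502 and 6149 FPKM, against 56.2, 31.9 and 35.6 FPKM in WT NS columns. No groups overlapped, and their order was that of DREB2A. By mean FPKM it ranked 57th of 33557 loci in 35S:HSFA1b HS, 220th in 35S:HSFA1b NS, 36th in WT HS and 3004th in WT NS. The mean was 5021 ± 978 FPKM in WT HS and 41.3 ± 13.1 FPKM in WT NS (SD, n = 3 each), a ratio of 122 (log2 fold change 6.95, SE 0.23, limma adjusted p = 1.1e-07). In 35S:HSFA1b plants HS raised it to 1468 ± 45.7 FPKM, against 361 ± 57.9 FPKM under NS (SD, n = 3 each), a ratio of 4.07 (log2 2.04, SE 0.21, adjusted p = 3.2e-05). The difference of these HS changes was the largest among the 6 tested genes (log2 -4.92, SE 0.29, adjusted p = 1.4e-06). Under NS the overexpressor was 8.75 times above WT (log2 3.16, SE 0.23, adjusted p = 6.8e-05), and this call held with column 2 alone. The unstressed overexpressor was still below heated WT (log2 -3.79, SE 0.23, adjusted p = 1.4e-05), and so was the heated overexpressor (log2 -1.76, SE 0.21, adjusted p = 0.00015). The difference between the heated groups kept its call over 21 alternatives, but its size spanned -1.84 to -0.58 on the log2 scale. With each column left out in turn it was -1.84 to -1.6.

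**Figure D3:**
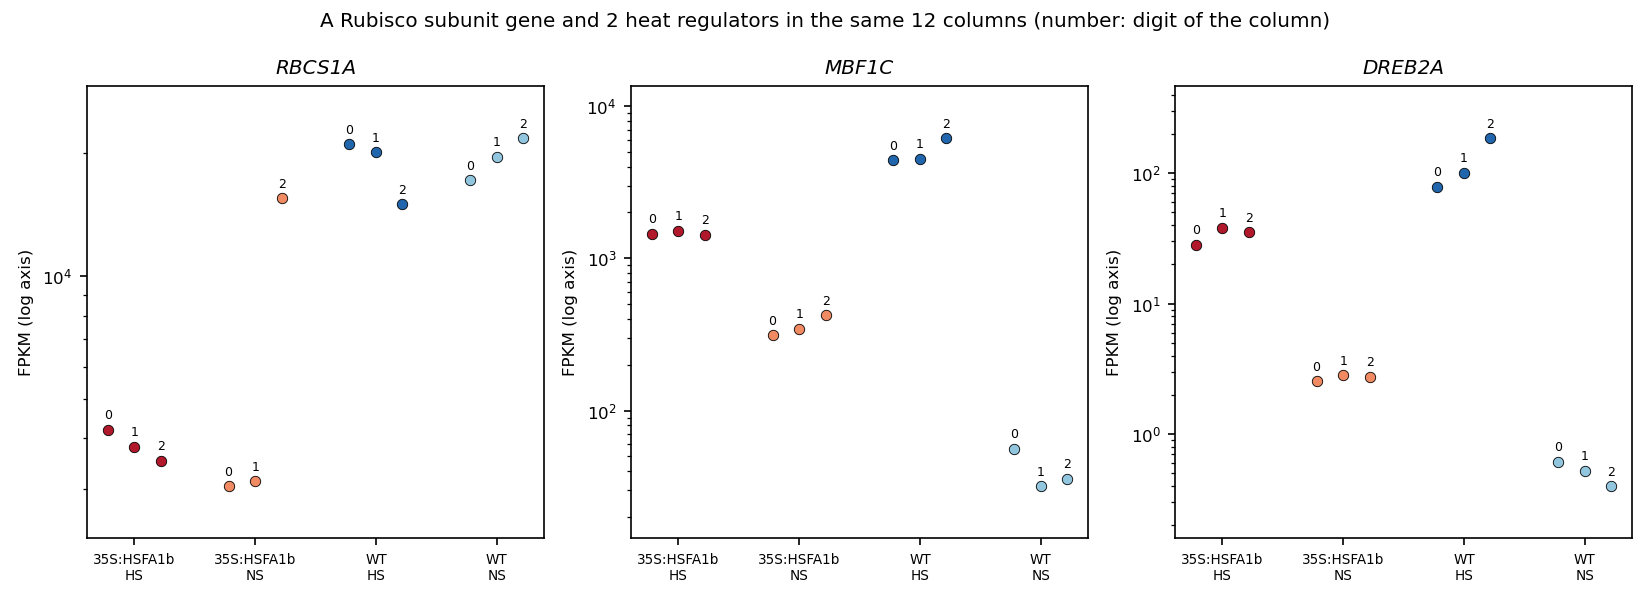
FPKM (log axes) of RBCS1A, MBF1C and DREB2A in the 12 columns, by group; the number at each point is the digit of the column. RBCS1A was at 15512 FPKM in column 2 of 35S:HSFA1b NS and at 3057 and 3138 FPKM in its columns 0 and 1, while DREB2A lay within 2.55 to 2.82 FPKM and MBF1C within 312 to 425 FPKM in the same 3 columns.

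MBF1C lies at chr3:8918267-8919683 on the plus strand with 2 annotated transcripts, whose starts differ. The window at the gene start held no heat shock element, whereas the one at the other start, position 8918679, held a 2-unit element at -99 to -92, within the exon of the transcript that begins at the gene start. The 30 bases around it are shown because MBF1C and DREB2A had the largest HS changes in WT plants, and capitals mark the element.
MBF1C, chr3:8918569-8918598, plus strand: atcatctctaaGAACGTTCcagagacgaaa
The other 5 genes held no heat shock element in the window at their start. MBF1C shares 176 exonic bases with the antisense RNA AT3G04685, which was not analysed here, 114 with ALDH2C4 and 22 with MSH7, all on the opposite strand. ALDH2C4 was at 38 to 91.5 FPKM over all columns and MSH7 at 1.66 to 4.7 FPKM.

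MBF1A and MBF1B, the steadily expressed coactivators, changed little beside MBF1C. MBF1B was at 120, 118 and 123 FPKM in 35S:HSFA1b HS columns and at 72.8, 80.0 and 72.8 FPKM in 35S:HSFA1b NS columns. In WT HS columns it was at 120, 117 and 128 FPKM, against 69.9, 61.8 and 68.0 FPKM in WT NS columns. HS and NS columns did not overlap in either genotype, and the 2 heated groups did. HS raised MBF1B 1.6-fold in 35S:HSFA1b plants (log2 0.68, SE 0.07, limma adjusted p = 4.2e-05) and 1.83-fold in WT plants (log2 0.87, SE 0.08, adjusted p = 9.0e-05). The difference of these changes was -0.19 (95% confidence interval -0.42 to 0.03, adjusted p = 0.23). The heated overexpressor and heated WT differed by -0.02 on the log2 scale (95% confidence interval -0.18 to 0.14, adjusted p = 0.89), a sign that turned after quantile normalization and without column 2 of WT HS (log2 0.02). Under NS the overexpressor differed from WT by 0.18 (95% confidence interval -0.01 to 0.36, adjusted p = 0.21).

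MBF1A was at 92.2, 105 and 104 FPKM in 35S:HSFA1b HS columns and at 91.2, 85.5 and 90.4 FPKM in 35S:HSFA1b NS columns. In WT HS columns it was at 119, 120 and 139 FPKM, against 90.7, 74.7 and 78.9 FPKM in WT NS columns. HS columns were above NS columns in both genotypes, by a small margin in 35S:HSFA1b plants. HS raised it 1.55-fold in WT plants (log2 0.63, SE 0.10, adjusted p = 0.0013), whereas the change in 35S:HSFA1b plants was 0.17 on the log2 scale (95% confidence interval -0.03 to 0.38, adjusted p = 0.16) and turned its sign after quantile normalization. The difference of the HS changes was just past the threshold (log2 -0.46, SE 0.13, adjusted p = 0.048), and leaving out any 1 column other than column 0 of WT NS or column 0 of WT HS ended this call, with adjusted p between 0.064 and 0.12. The heated overexpressor was below heated WT (log2 -0.33, SE 0.09, adjusted p = 0.024), a call that ended without column 2 of WT HS (adjusted p = 0.069) or column 0 of 35S:HSFA1b HS (adjusted p = 0.091) and after quantile normalization (log2 -0.14, adjusted p = 0.29). Under NS the overexpressor differed from WT by 0.13 (95% confidence interval -0.09 to 0.36, adjusted p = 0.42). MBF1A lies at chr2:17774832-17776320 and MBF1B at chr3:21707247-21708972, both on the plus strand with 4 exons and coding sequences of 429 bases that were 84.4% identical. Their identity with MBF1C was lower, at 61.9% for MBF1A and 64.5% for MBF1B. None of the 7 genes had another genomic copy of at least 100 bp at 90% identity. DREB2C matched DREB2H just under this limit, at 88.5% over 546 bp, and whether reads were shared between them was not tested. MBF1A overlaps AT2G42690 on the opposite strand by 80 exonic bases, and that gene was at 92.8 to 99.4 FPKM in 35S:HSFA1b HS, 176 to 188 FPKM in 35S:HSFA1b NS, 109.9 to 147 FPKM in WT HS and 209.6 to 238 FPKM in WT NS.

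The 3 MBF1 genes summed to 1689 ± 46.2 FPKM in 35S:HSFA1b HS, 525 ± 57.3 FPKM in 35S:HSFA1b NS, 5269 ± 995 FPKM in WT HS and 189 ± 24.9 FPKM in WT NS (SD, n = 3 each). MBF1C made up 86.3 to 87.3% of this sum in 35S:HSFA1b HS columns, 65.6 to 72.2% in 35S:HSFA1b NS columns, 94.9 to 95.8% in WT HS columns and 19 to 25.9% in WT NS columns. MBF1A was the most abundant of the 3 only in WT NS plants, with 41.8 to 44.3% of the sum. The family thus differed in make-up between the 4 groups without overlap of columns.

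Genes known downstream of DREB2A and MBF1C were measured beside them, in lists also chosen with earlier results of these data known. Of 8 targets of DREB2A, 5 rose in WT HS against WT NS plants, beside 23.7% of all tested genes. In 35S:HSFA1b HS against 35S:HSFA1b NS plants 2 of the 8 rose, a share near the 22.6% of all genes, and in 35S:HSFA1b NS against WT NS plants 1 rose, beside 6.12% of all genes. None of the 8 fell in these comparisons. Their median log2 fold change was 1.83, 0.80 and 0.29 in these comparisons, beside 0.02, 0.02 and -0.01 over all tested genes. HSFA3, the heat shock factor that DREB2A activates, was at 1.88 ± 0.705 FPKM in 35S:HSFA1b HS, 0.556 ± 0.183 FPKM in 35S:HSFA1b NS, 12.5 ± 10.2 FPKM in WT HS and 0.521 ± 0.323 FPKM in WT NS (SD, n = 3 each). The WT HS columns were at 5.37, 7.79 and 24.2 FPKM, and without column 2 their mean was 6.58 FPKM. It rose in WT plants (log2 4.51, SE 0.69, adjusted p = 0.0012), was below heated WT in the heated overexpressor (log2 -2.49, SE 0.66, adjusted p = 0.016; 0.062 without column 0 of 35S:HSFA1b HS), and its HS change in 35S:HSFA1b plants was 1.72 (SE 0.66, adjusted p = 0.056). COR47, a dehydrin, rose in both genotypes, by 1.39 in 35S:HSFA1b plants (SE 0.25, adjusted p = 0.0014) and by 2.30 in WT plants (SE 0.26, adjusted p = 0.00026). AT3G53990 did so too, by 1.66 (adjusted p = 0.00019) and 2.05 (adjusted p = 0.00034), and it was the target that rose in 35S:HSFA1b NS plants (log2 1.01, SE 0.25, adjusted p = 0.037), a call that leaving out any column of the 2 NS groups or column 1 of WT HS ended (adjusted p of up to 0.14). LEA14, a late embryogenesis abundant protein gene, changed by 0.02 in 35S:HSFA1b plants (adjusted p = 0.95) and rose by 1.48 in WT plants (adjusted p = 0.0058). It was the 1 target of 8 whose HS changes were called different between genotypes, a share near the 11.9% of all genes. That difference (log2 -1.45, SE 0.40, adjusted p = 0.04) lost its call without column 1 or 2 of 35S:HSFA1b NS or of WT NS or any 35S:HSFA1b HS column (adjusted p of up to 0.1). RD29A, the classical drought target, stayed within 39.9 to 139 FPKM over all columns and its HS change did not pass the test in either genotype.

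**Figure D4:**
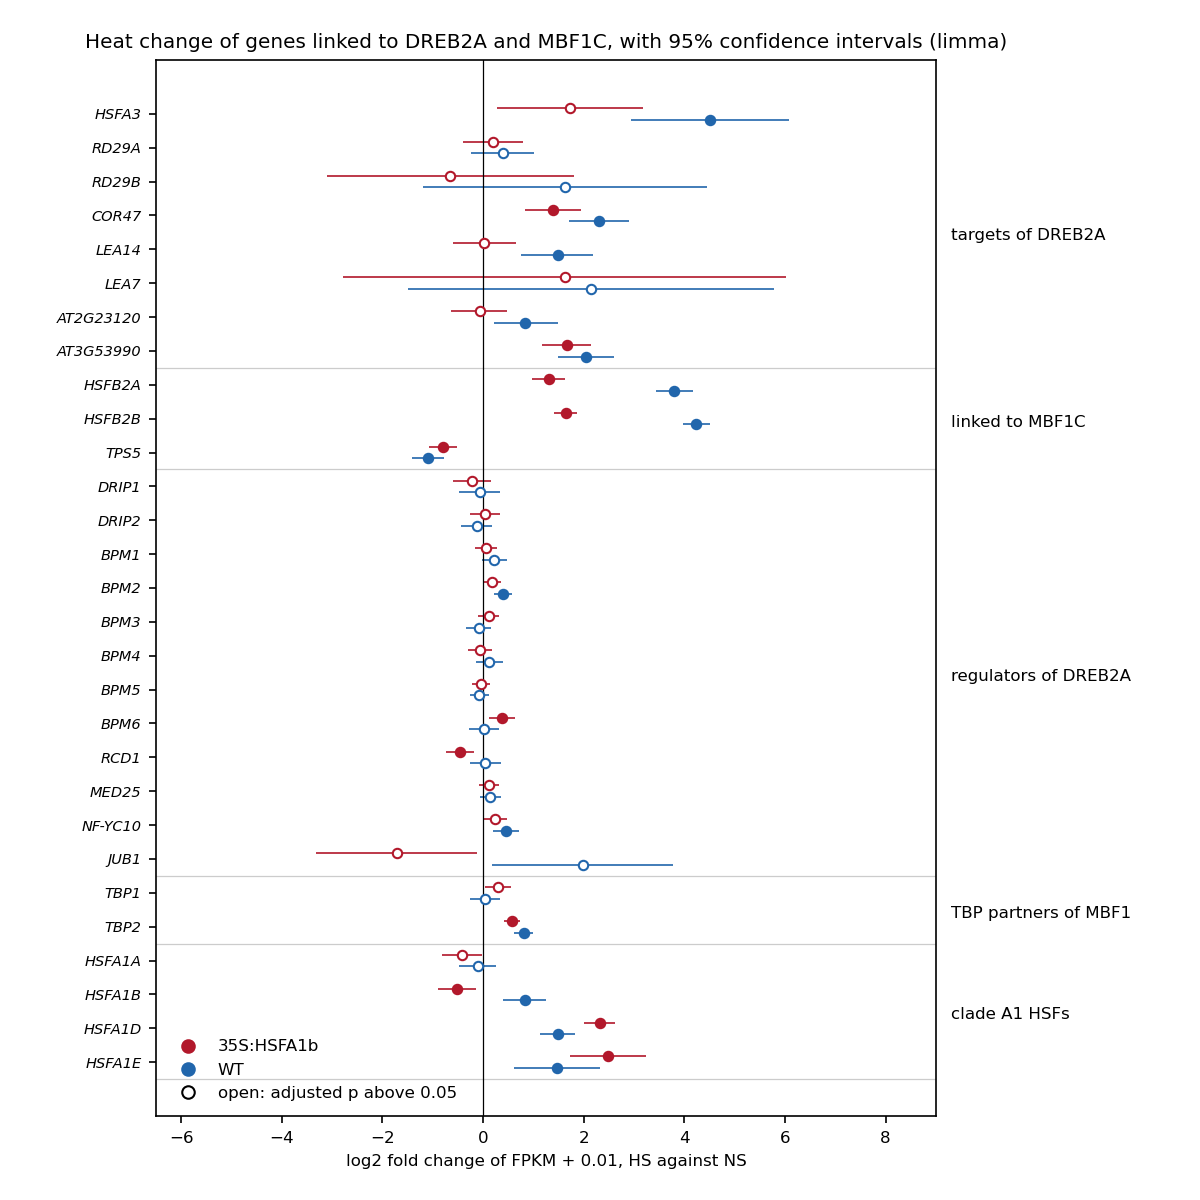
Log2 fold change of FPKM + 0.01, HS against NS (horizontal axis), in 35S:HSFA1b plants (red) and WT plants (blue) for the tested genes of 5 lists linked to DREB2A and MBF1 (vertical axis). Points are limma estimates, bars are 95% confidence intervals, and open points did not pass an adjusted p of 0.05. HSFB2B rose in both genotypes, by 1.64 in 35S:HSFA1b and by 4.23 in WT plants, while 10 of the 12 tested regulators of DREB2A had open points in each genotype.

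Of 3 genes linked to MBF1C, the class B heat shock factors HSFB2A and HSFB2B rose in both genotypes. TPS5, of the trehalose-phosphate synthase family, fell in both. HSFB2A was at 141 ± 4.89 FPKM in 35S:HSFA1b HS, 57.4 ± 4.59 FPKM in 35S:HSFA1b NS, 87 ± 16.8 FPKM in WT HS and 6.22 ± 1.1 FPKM in WT NS (SD, n = 3 each). Its level was thus higher in the heated overexpressor than in heated WT (log2 0.72, SE 0.15, adjusted p = 0.0047), like that of DREB2B and unlike that of MBF1C. Its HS change, however, was smaller in 35S:HSFA1b than in WT plants, like that of MBF1C (log2 difference -2.50, SE 0.21, adjusted p = 2.3e-05). The same held for HSFB2B (log2 difference -2.59, SE 0.15, adjusted p = 9.2e-07), whereas TPS5 was not called (adjusted p = 0.29). These calls of HSFB2A and HSFB2B, beside 11.9% of all genes, held with each column left out in turn. HSFB2B was at 71.1 ± 1.51 FPKM in 35S:HSFA1b HS and 104 ± 8.19 FPKM in WT HS (SD, n = 3 each; log2 -0.55, SE 0.10, adjusted p = 0.0027). TPS5 fell by 0.80 in 35S:HSFA1b plants (adjusted p = 0.00056) and by 1.10 in WT plants (adjusted p = 0.00046) on the log2 scale. Of the 2 TATA-binding protein genes, TBP2 rose in both genotypes, by 0.57 in 35S:HSFA1b plants (adjusted p = 0.00016) and 0.81 in WT plants (adjusted p = 0.00016), and TBP1 passed the test in neither.

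Of 13 genes that act on DREB2A 12 were tested, and GRF7, a repressor of DREB2A, was below the filter with at most 0.798 FPKM. In WT HS against WT NS plants 2 of the 12 rose, beside 23.7% of all genes, namely BPM2, a substrate adaptor in the removal of DREB2A protein (log2 0.39, adjusted p = 0.0054), and NF-YC10, a partner of DREB2A under heat (log2 0.45, adjusted p = 0.014), whose call was lost without column 1 or 2 of WT NS (adjusted p of up to 0.053). In 35S:HSFA1b HS against 35S:HSFA1b NS plants 1 rose and 1 fell, beside 22.6% of all genes that rose and 19.7% that fell. BPM6, of the same adaptor family, rose (log2 0.38, adjusted p = 0.025), a call lost without column 0 or 2 of 35S:HSFA1b NS or column 1 or 2 of 35S:HSFA1b HS, and RCD1, an interactor of DREB2A, fell by 0.46 (adjusted p = 0.013). In 35S:HSFA1b NS against WT NS plants 0 of the 12 were called in limma, beside 9.77% of all genes. The lowest unadjusted p in limma was 0.053, for MED25. In 35S:HSFA1b HS against WT HS plants 4 of the 12 were called, beside 28.9% of all genes: BPM6 was higher (log2 0.37, adjusted p = 0.04), and BPM1 (log2 -0.30, adjusted p = 0.042), RCD1 (log2 -0.52, adjusted p = 0.0099) and JUB1 were lower. Of these only RCD1 kept its call with each of the 12 columns left out in turn, and BPM1 and BPM6 lost theirs in 7 of the 12 (adjusted p of up to 0.13). JUB1, a NAC factor that activates DREB2A, was at 1.35, 1.11 and 0.741 FPKM in 35S:HSFA1b HS columns and at 2.62, 5.92 and 10.02 FPKM in WT HS columns (log2 -2.37, SE 0.73, adjusted p = 0.032), a call lost without any 35S:HSFA1b HS column or column 1 or 2 of WT HS. Under NS it was at 4, 3.47 and 2.92 FPKM in 35S:HSFA1b columns, against 5.45, 0.62 and 0.735 FPKM in WT columns. Its HS change passed the test neither in 35S:HSFA1b plants (log2 -1.72, adjusted p = 0.079) nor in WT plants (log2 1.98, adjusted p = 0.071). The difference of these changes did (log2 -3.70, SE 1.03, adjusted p = 0.041), beside 11.9% of all genes, and this call was lost in 10 of 12 fits with a column left out (adjusted p of up to 0.097), the exceptions being column 0 of WT NS and column 0 of WT HS. DRIP1 and DRIP2, the ubiquitin ligases of DREB2A, passed the test under HS in neither genotype.

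Among the clade A1 factors, HSFA1D and HSFA1E showed the order of DREB2B in their means, with the highest level in heated overexpressor plants. HSFA1D was at 27.6 ± 2.35 FPKM in 35S:HSFA1b HS, 5.51 ± 0.275 FPKM in 35S:HSFA1b NS, 12.1 ± 2.77 FPKM in WT HS and 4.27 ± 0.187 FPKM in WT NS (SD, n = 3 each). HSFA1E was at 16.9 ± 3.38, 3.01 ± 0.567, 3.79 ± 1.87 and 1.29 ± 0.373 FPKM in the same groups in the same order (SD, n = 3 each). Both were higher in 35S:HSFA1b HS than in WT HS plants, HSFA1D by 1.21 (SE 0.14, adjusted p = 0.00012) and HSFA1E by 2.25 (SE 0.34, adjusted p = 0.00079) on the log2 scale. HSFA1A did not show this order, with means of 2.8, 3.73, 3.11 and 3.36 FPKM in the same order of groups. Its columns overlapped between 35S:HSFA1b HS and WT HS, where it was not called, and its HS change passed the test in neither genotype. HSFA1B, whose values include the transgene, fell under HS in 35S:HSFA1b plants (log2 -0.52, SE 0.17, limma adjusted p = 0.028). That call was lost in 4 of 12 fits with a column left out.

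The genes most like each member were found by Pearson's r of log2(FPKM + 0.01) over the 12 columns among 17720 loci, as a description over columns that share groups. DREB2A came closest to PHB3 and ASG1 and to SR45a, a splicing factor gene, all at r = 0.997. MBF1C came closest to AT2G20560 and AT1G54050 (r = 0.998 each) and to HSP101, the disaggregating chaperone of thermotolerance (r = 0.997), which was at 1021 FPKM in 35S:HSFA1b HS, 103 FPKM in 35S:HSFA1b NS, 3971 FPKM in WT HS and 7.16 FPKM in WT NS on average. DREB2B came closest to other genes, GB2 (r = 0.993), TET2 (r = 0.990) and PFK7 (r = 0.988), and PFK7 was at 193 FPKM in 35S:HSFA1b HS, 40.5 FPKM in 35S:HSFA1b NS, 70.6 FPKM in WT HS and 11.2 FPKM in WT NS on average. MBF1B came closest to AT5G43440 (r = 0.990), ISA3 and AT5G57100, and DREB19 to LARP6a (r = 0.982), AT3G55960 and AT1G65720. The gene closest to MBF1A was DREB19 (r = 0.972). Among the members themselves r was 0.982 for DREB2A with MBF1C, 0.839 for DREB2A with DREB2B and 0.609 for MBF1A with DREB2B.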

How the data were processed

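Reads of 12 leaf libraries were mapped to the Arabidopsis transcriptome with GSNAP, and the authors deposited FPKM values from Cufflinks and Cuffdiff, scaled between libraries by the geometric method, 1 per locus and column; the labels name TAIR10, and versions are not given in the sources used here. The methods give a minimum read depth per library, but the table holds no counts, so the depth of each column is unknown. The worth of 1 fragment per column was recovered from steps between low values, and whole fragments only for DREB2B and DREB2C.

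Columns were mapped to groups by name. limma 3.58.1 in R 4.3.3 (lmFit, eBayes with an intensity trend, two-sided) was run on log2(FPKM + 0.01) for genes averaging 1 FPKM or more, with the 9 columns of WT HS, WT NS and 35S:HSFA1b NS for comparisons among these groups and all 12 for the rest, and tested on simulated data. Sequences, gene models and motifs come from RefSeq TAIR10.1 (97.8% of loci matched), and copies from BLAST+ 2.17.0. Alternatives covered pseudocount, filter, scaling, groups in the fit, trend, a fold threshold and each column left out; leaving 35S:HSFA1b NS with column 2 alone was added after the data were seen. Members, lists and motifs were chosen with earlier results of these data known; named genes are the members, 6 lists, overlapping genes, cell type markers and the 3 most alike genes per member.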

Additional observations from a re-analysis of the deposited data

Results flagged for a closer look

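In 3 genes the HS change differed between 35S:HSFA1b and WT plants by the interaction term in limma, where 11.9% of all tested genes were called, 7.97% with a smaller value in 35S:HSFA1b plants. The difference was -4.92 on the log2 scale for MBF1C (SE 0.29, adjusted p = 1.4e-06), with each HS column above each NS column in both genotypes. It was -4.15 for DREB2A (SE 0.38, adjusted p = 5.1e-05), again with an increase in every column of both genotypes. It was -0.46 for MBF1A (SE 0.13, adjusted p = 0.048), which lost its call under most alternatives. Under HS the genotype and the library prefix cannot be told apart.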

How the results depend on the processing

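No paired analysis was possible because the digits of the columns are not tied to the replicate numbers of the labels. Of 708 alternatives over single members, 647 kept direction and call, 45 lost and 9 gained the call, and 7 turned the direction, and the cause was not tested. With column 2 alone in 35S:HSFA1b NS, 1 member was called against WT NS (3 with all columns) and 3 against WT HS (6), and 212 of all genes were called against WT NS in place of 1731; a fit of all 12 columns called 2624. With each column left out in turn this count was 641 to 2873, and that of differing HS changes 1161 to 3387 in place of 2112. A pseudocount of 1 gave 5 members with differing HS changes in place of 3, beside 11.8% of all genes in place of 11.9%. With each column left out in turn, 3 to 5 members were called in 35S:HSFA1b HS against WT HS, the lowest without column 2 of WT HS or column 0 of 35S:HSFA1b HS. The share of all genes called in these fits was 20.6 to 29.6%. Directions turned after quantile normalization for DREB19 in 35S:HSFA1b NS against WT NS (-1.09), MBF1A in 35S:HSFA1b HS against NS (-0.03), MBF1B in 35S:HSFA1b HS against WT HS (0.19; with each column left out in turn -0.04 to 0.02, the highest without column 2 of WT HS) and the DREB2B difference of HS changes (1.18, and 0.16 and 1.18 with a pseudocount of 0.1 and 1, the last at adjusted p = 0.0062). Quantile normalization moved the median of all genes by -0.14 in WT HS against WT NS and by 0.14 in the difference of HS changes. HS calls in WT plants were kept by all 6 members under every alternative that tested them, apart from a fold threshold of 1. The WT NS levels of DREB2B and DREB2C are limited by depth.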

Other observations

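By size of the fitted log2 fold change, DREB2A ranked 62nd of 17720 genes under HS in 35S:HSFA1b plants and 55th of 17710 in WT plants. DREB2B ranked 46th in 35S:HSFA1b and 201st in WT plants. DREB19 ranked 271st in 35S:HSFA1b and 148th in WT plants, and MBF1C 226th in 35S:HSFA1b and 72nd in WT plants. MBF1B ranked 1786th in 35S:HSFA1b and 2111th in WT plants. In 35S:HSFA1b HS against WT HS plants DREB2B ranked 131st from the top, while DREB19, MBF1C and DREB2A ranked 275th, 403rd and 406th from the bottom of 17720 genes.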
